A study of Mus musculus with 5 samples.

Results

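The genes described here encode nuclear subunits of respiratory complexes I, II, III and IV, together with cytochrome c, in fat cells of the mouse line C3H10T1/2, whose mesenchymal cells turn into adipocytes when differentiated in culture. The list of 51 genes was set by their known place in the chain. It holds 26 genes of complex I, 4 of complex II, 7 of complex III, 13 of complex IV and Cycs, the gene of cytochrome c. Of these, 49 had a probe set that names the gene alone, out of 18193 genes with such a probe set, and the brightest one stood for the gene. Genes whose highest reading lay below a floor, the level of the median probe set (intensity 8.39), were left out of all counts. That left 48 of the 51 genes among 12439 counted genes.

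Total RNA of 5 cultures, each differentiated and then exposed for 6 h to a compound or to solvent alone, was labelled and read on 5 Affymetrix mouse arrays. Each group is 1 array: the solvent DMSO with butein and sulfuretin, and a further solvent culture, DMSO1, which the labels name as the control of resveratrol. Butein is a chalcone, sulfuretin an aurone and resveratrol a stilbene. No label states a dose. All cells are of 1 line, with no genetic change named. With 1 array per group there is no error from replicates. Differences describe these arrays, and any p-value below borrows the spread between the solvent arrays. In a bulk culture, fewer cells of a type and less RNA per cell cannot be told apart.

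Oxidative phosphorylation passes electrons from NADH through complex I, or from succinate through complex II, to ubiquinone, then through complex III and cytochrome c to complex IV, which reduces oxygen. Complexes I, III and IV pump protons, and ATP synthase uses the resulting gradient. White adipocytes use these mitochondria for lipid synthesis and turnover, while brown adipocytes uncouple the gradient through Ucp1 to make heat. The factors NRF1, GABPA, YY1 and ESRRA, with the coactivator Ppargc1a, are known to drive many of these nuclear genes.

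The cells carried adipocyte transcripts. All 11 matched adipocyte markers of 13 listed were counted, with Adipoq at an intensity of 7202 in DMSO and Fabp4 at 9134. Summed over the list, adipocyte markers read between 22075 (butein) and 27506 (DMSO1). Of 8 brown or beige markers 6 were counted. Ucp1 (between 4.27 and 5.21) and Prdm16 (between 6.42 and 7.03) lay under the floor on all 5 arrays. Dio2 and Elovl3 lay under it in DMSO, butein and sulfuretin. The list summed to between 270 and 399 on any array, with the members Cox7a1 and Cox8b included. Markers of skeletal muscle (3 of 7 counted), cardiac muscle (1 of 4), macrophages or blood (3 of 5) and bone or cartilage (2 of 5 matched) summed to between 19.5 and 219 on any array, while fibroblast or preadipocyte markers (6 of 7 counted) summed to between 9212 and 10481. Both the adipocyte sum (25282 in DMSO, 22075 with butein) and the fibroblast sum (10481 and 9212) were lowest with butein in its set, and their part in the results was not tested. Larger differences stood on the same arrays in a pair of stress genes picked from earlier results: Hmox1, the heme oxygenase gene, read 197 in DMSO, 4134 with butein and 2721 with sulfuretin, and 378 in DMSO1 against 741 with resveratrol. Srxn1, the sulfiredoxin gene, was 14.2-fold, 6.77-fold and 1.44-fold higher with butein, sulfuretin and resveratrol. The solvent arrays themselves differed for both genes.

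Promoters are shown for 3 members to let the NRF1 motif be seen in place; counted members were taken by the number of matches in the 250 bases before the start and then by brightness, so a match that lies or reaches past the start did not count. In RefSeq sequence of GRCm38.p6, 41 of the 51 members had 43 promoter windows, each from 250 bases before to 50 bases after a gene's start. The motif searched was GCGCA and GCGC with 1 base of any kind between them, on both strands, and capitals mark each match. The 250 bases before the start are printed 5′ to 3′ on the gene's own strand, all 3 on the minus strand: Sdha, chr13:74350241-74350490, with 3 matches; Cox6a1, chr5:115348959-115349208, with 2; and Ndufa8, chr2:36049339-36049588, with 1.
Sdha: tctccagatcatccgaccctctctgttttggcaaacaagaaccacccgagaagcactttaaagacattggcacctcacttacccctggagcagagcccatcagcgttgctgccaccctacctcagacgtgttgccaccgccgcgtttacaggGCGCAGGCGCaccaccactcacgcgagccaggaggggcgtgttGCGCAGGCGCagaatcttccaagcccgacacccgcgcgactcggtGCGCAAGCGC
Cox6a1: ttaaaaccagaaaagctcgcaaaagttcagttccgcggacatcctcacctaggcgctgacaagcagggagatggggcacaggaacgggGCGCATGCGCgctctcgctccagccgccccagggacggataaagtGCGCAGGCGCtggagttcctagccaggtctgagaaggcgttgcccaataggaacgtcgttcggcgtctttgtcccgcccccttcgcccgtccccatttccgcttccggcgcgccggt
Ndufa8: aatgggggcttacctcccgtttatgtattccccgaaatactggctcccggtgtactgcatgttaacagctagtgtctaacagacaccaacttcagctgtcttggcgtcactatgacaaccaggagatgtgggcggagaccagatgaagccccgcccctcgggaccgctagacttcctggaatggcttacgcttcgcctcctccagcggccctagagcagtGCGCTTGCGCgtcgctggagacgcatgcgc

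The NRF1 motif lay in 10 of 43 member windows (23.3%) and in 4.60% of all 32851 promoter windows. The 9 genes concerned were Cox6a1, Ndufa5, Ndufa6, Ndufa8, Ndufb4, Ndufs6, Sdha, Sdhd and Uqcrc1. The GABPA motif CCGGAAGT lay in 3 member windows (6.98%, against 3.89% of all), those of Cox8a, Ndufs3 and Uqcrh. The YY1 motif AAGATGGCG lay in 4 (9.30%, against 1.40%), those of Ndufa9, Ndufs4, Ndufs6 and Ndufs7. The ESRRA motif TCAAGGTCA lay in that of Sdhd alone (2.33%, against 0.423%). The NFE2L2 motif, of the antioxidant response factor (TGAC and GCA with 3 bases of any kind between them), lay in 0 of 43 windows and in 3.04% of all. The motifs can overlap, and a match is a run of letters and not a known binding site. With butein, the 7 counted genes with the NRF1 motif had a median difference of -0.15 on the log2 scale. The 31 counted genes with a window but no match had one of -0.18, nearly the same. For GABPA the medians were -0.073 over 3 counted genes with the motif and -0.18 over 35 without it. For YY1 they were -0.23 over 3 and -0.14 over 35. Sdhd, with the ESRRA motif, differed by -0.26, beside a median of -0.15 over 37 genes without it. Differences by motif were not tested.

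With butein, nearly the whole chain read slightly lower. Of the 48 counted members 46 were lower than in DMSO, Cox5a was exactly equal and Cox7a1 was higher. The median log2 difference was -0.16, with a range from -0.42 to 0.36. Among all counted genes 37.1% were lower, 33.0% higher and 29.9% exactly equal, and the median was 0. At or above percentile 90 of mean signal, where 43 of the 48 members lay, 59.6% of counted genes were lower, with a median of -0.071. No member reached a 2-fold difference, a size that 2.32% of all counted genes reached. Past a log2 difference of 0.32, the size taken here as a small call, 7 members were lower (Cox8b, Ndufs7, Ndufb10, Ndufb3, Ndufs1, Ndufb7 and Uqcrb) and Cox7a1 was higher, beside 9.2% of all counted genes lower and 11.4% higher. Of 52 dimmer probe sets of 31 members, 41 were lower, 10 equal and 1 higher with butein. Past 0.32 lower were 5 of them, of Ndufa3, Ndufa5, Ndufb5, Ndufb8 and Sdhd, none of which is among the 7. The dimmer probe sets of Ndufs7, Ndufb7 and Uqcrb differed by -0.316, -0.313 and -0.26. The other genes of the 7 have 1 probe set each. Dimmer probe sets share the RNA of the same arrays and are not replicates.

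The difference with butein was about as large as that between the solvent arrays, which lie in different sets. With all 5 arrays brought to 1 distribution by quantile normalization, DMSO1 lay below DMSO with a median of -0.14 over the members. Of the members 32 were lower and 15 higher. Over all counted genes the median was -0.066, with 55.7% lower and 43.6% higher. On that scale 32 of the 48 members differed less between butein and DMSO than between the solvent arrays, as did 71.0% of all counted genes. With DMSO1 in place of DMSO, 21 members were lower and 27 higher with butein, and the median was 0.014. When limma took both solvent arrays as replicates on that scale, 0 members passed for any treatment at an adjusted p of 0.05, and 0 had an unadjusted p under 0.05. Over all 12439 genes limma called 0 as well, with 352, 38 and 30 genes under an unadjusted 0.05 for butein, sulfuretin and resveratrol. Among the members the lowest unadjusted p was 0.181, for Ndufs1 with butein. That fit has 1 residual degree of freedom.

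**Figure D1:**
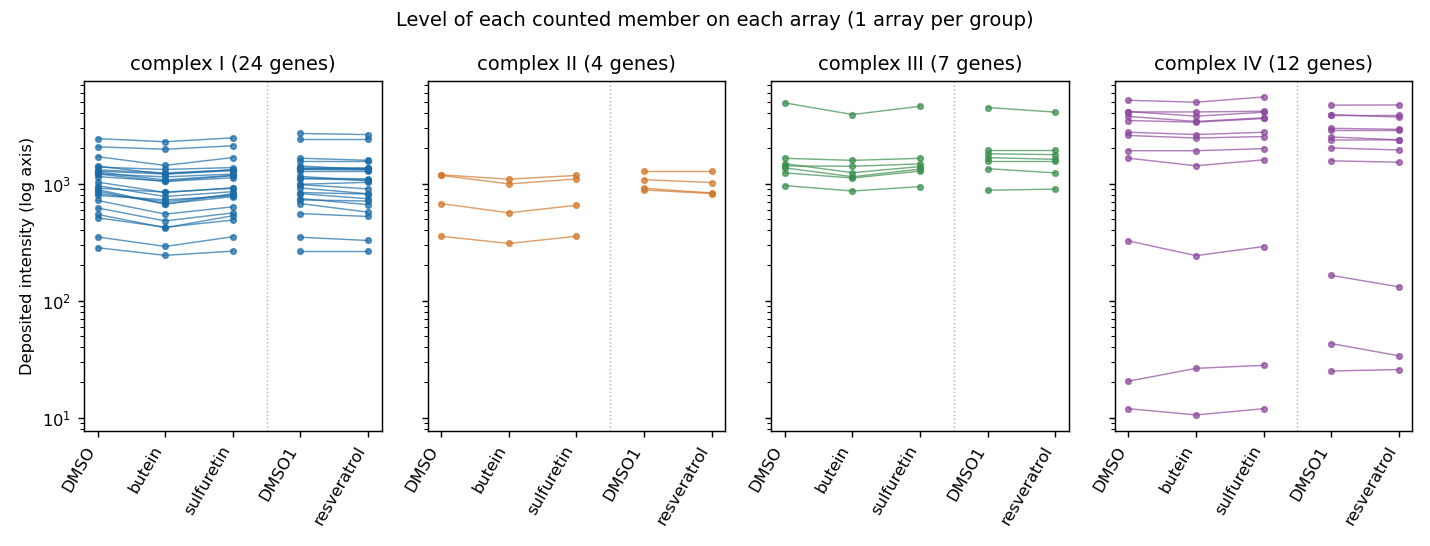
Deposited intensity (log axis) of each counted member on the 5 arrays, in a panel for each complex, with a point for each array and lines joining the arrays of a set for 1 gene; the dotted line parts the sets. The lines dip at butein in complexes I, II and III, while most complex IV lines are nearly level; lines of different genes come from different probes and do not rank their transcripts.

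With butein the median shift was larger in complexes I and II, which lay close together, than in III and IV. This order was not kept with another control: after joint normalization the medians with DMSO1 as control were 0.0043, -0.14, -0.16 and 0.085 for I, II, III and IV. The median log2 difference was -0.23 over the 24 counted complex I genes, all of them lower, and -0.22 over the 4 complex II genes, all lower. It was -0.15 over the 7 complex III genes, all lower, and -0.069 over 12 complex IV genes, of which 10 were lower. The ranges overlapped, from -0.41 to -0.068 in complex I, from -0.26 to -0.12 in complex II, from -0.33 to -0.012 in complex III and from -0.42 to 0.36 in complex IV. No test was run across genes, which are not replicates. Signal level differed between the complexes too: the median intensity in DMSO was 994 over complex I, 890 over complex II, 1417 over complex III and 2661 over complex IV. Within complex I the difference and the mean log2 level of the 2 arrays had a Pearson r of 0.56 and a Spearman rho of 0.64 over 24 genes that share both arrays. Over all 48 members, the low-signal Cox7a1 and Cox7c included, they were 0.031 and 0.53. The part of signal level in the differences between complexes was not tested.

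**Figure D2:**
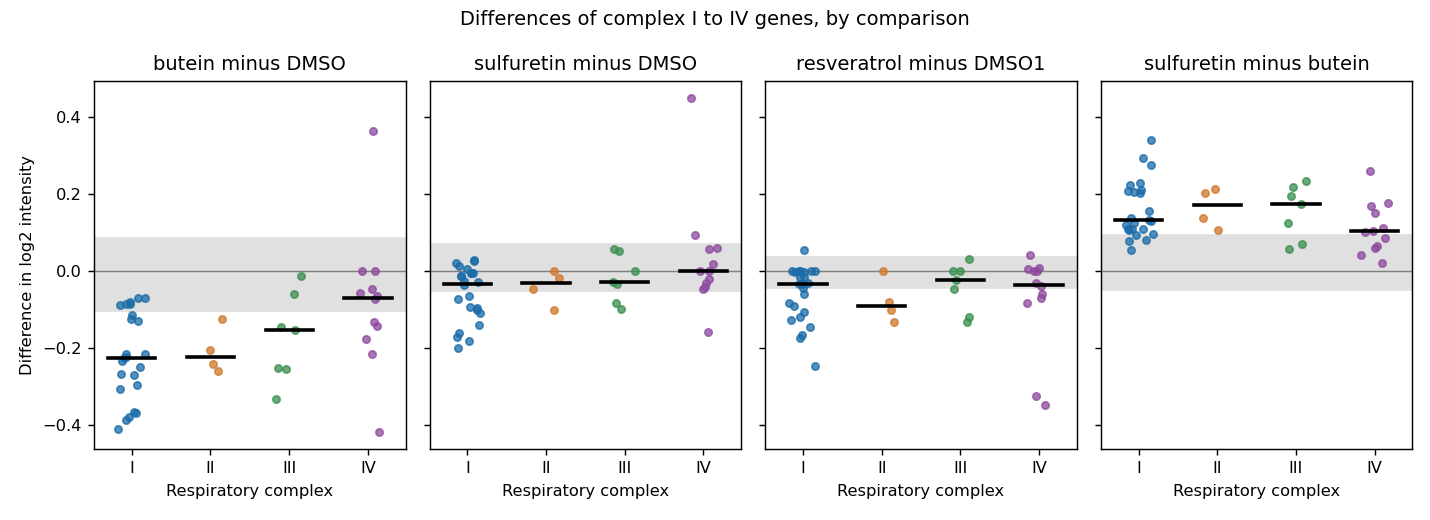
Difference in log2 intensity of each counted member (points) by complex for 4 comparisons, with black bars for the median of a complex and a grey band for the quartiles of all 12439 counted genes. With butein the medians of complexes I, II and III lie below the band and that of complex IV within it, while the medians with sulfuretin lie within the band. With resveratrol the median of complex II lies below the band and the others within it. For sulfuretin against butein all medians lie above the band.

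Core subunits of complex I carry the flavin and the iron-sulfur clusters. Ndufs7, whose product holds the cluster next to the ubiquinone site, read 889 in DMSO, 669.6 with butein and 774 with sulfuretin, and 917 in DMSO1 against 818 with resveratrol. It was 1.33-fold lower with butein, the furthest below DMSO in complex I, and was lower in each treated array than in its control. Ndufs1, the gene of the largest core subunit, read 619, 479.8 and 562, and then 978 and 901. Its 2 solvent arrays lay 0.36 apart on the log2 scale after joint normalization, about as far as butein lay from DMSO on that scale (-0.34). Ndufv1, whose product binds NADH and the flavin, read 1212, 1141 and 1207, and 1334 and 1331. Ndufv1 thus lay at most 1.06-fold from its control in all 3 treatments, while Ndufv2, of the same module, was 1.17-fold lower with butein and exactly equal with resveratrol. The other core genes Ndufs3 and Ndufs8 differed by -0.29 and -0.21 with butein. The 6 core genes had a median of -0.26 and the 18 counted accessory genes one of -0.22, a grouping made after the values were seen.

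Accessory subunits, which surround the core and help it to assemble, spread over the same range. Ndufb10, a subunit of the membrane arm, read 717 in DMSO, 548 with butein and 633 with sulfuretin, and 675 in DMSO1 against 569.8 with resveratrol. It was the lowest complex I gene with resveratrol (-0.25) and among the lowest with the other compounds (-0.39 and -0.18). Ndufb3 read 545, 419 and 531, and 554 and 523. It was 1.30-fold lower with butein and 1.03-fold lower with sulfuretin, the largest gap between these compounds among the members (0.34 on the log2 scale). Ndufb7 read 861, 669 and 819, and 821 and 742. At the other end, Ndufa10 (1384, 1320 and 1371, then 1575 on both arrays of the DMSO1 set) and Ndufb9 (2063, 1965 and 2103, then 2411 on both) were each 1.05-fold lower with butein and equal with resveratrol. Ndufb8 and Ndufb9 were the highest with sulfuretin (0.027 and 0.028) and Ndufa9 with resveratrol (0.055). The accessory genes not yet named differed by between -0.27 (Ndufa5) and -0.080 (Ndufb6) with butein, apart from Ndufa6 (-0.31).

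Complex II is succinate dehydrogenase, which also works in the tricarboxylic acid cycle. Sdha, the flavin-binding subunit, read 1189 in DMSO, 1091 with butein and 1175 with sulfuretin, and 1281 both in DMSO1 and with resveratrol. Sdhb, the iron-sulfur subunit, read 1175, 994 and 1094, and 1080.3 and 1021. The membrane anchor genes Sdhc and Sdhd read 355, 308 and 355, and 674, 563 and 653, on the first 3 arrays, and 911 against 832 and 882 against 822 on the others. On these probe sets all 4 genes were lowest with butein within their set. On them Sdhd differed most with butein (-0.26) and Sdhc most with resveratrol (-0.13), but the solvent arrays differed by 1.03 for Sdhc after joint normalization. The dimmer probe set of Sdhd differed by -0.49 with butein and -0.40 with resveratrol. That of Sdhc was equal with butein and differed by -0.14 with resveratrol.

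In complex III, Uqcrb, a small subunit of the ubiquinone-binding part, read 4894 in DMSO, 3892 with butein and 4574 with sulfuretin, and 4468 in DMSO1 against 4080 with resveratrol. It was lower in all 3 treatments, with log2 differences of -0.33, -0.098 and -0.13, each larger than that between its solvent arrays after joint normalization (-0.014). Uqcrfs1, the Rieske iron-sulfur protein gene, read 1362, 1144 and 1331, and 1923 on both other arrays. Cyc1, the gene of cytochrome c1, read 1234, 1116 and 1279, and 1666 and 1612. Both were lower with butein, and with the other compounds they lay within 1.04-fold of their controls. The core gene Uqcrc2 differed by -0.25, -0.082 and -0.12 with butein, sulfuretin and resveratrol on its brightest probe set. On its other probe set, nearly as bright, it differed by -0.088, -0.0095 and 0. Uqcrc1 differed by -0.15, -0.028 and 0.032. Uqcrq was nearly level throughout (-0.012, 0.059 and -0.022), as was Uqcrh, the hinge protein gene (-0.058, 0 and 0). Cycs, the carrier between complexes III and IV, read 2735, 2626 and 2768, and then 2748 in DMSO1 against 2338 with resveratrol. On this probe set it was 1.18-fold lower with resveratrol, while its dimmer probe sets above the floor differed by -0.016 and -0.13, and it was at most 1.04-fold from its control with the other compounds.

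Complex IV had the median nearest to its control with butein and sulfuretin, but not with resveratrol, where complexes III and I lay nearer. Cox4i1, the ubiquitous isoform of the regulatory subunit IV, read 4096 in DMSO, 4094 with butein and 4153 with sulfuretin, and 3871 on both other arrays. Cox5a, a matrix-facing subunit, read 1909.6 both in DMSO and with butein, 1989 with sulfuretin, and 2017 in DMSO1 against 1936 with resveratrol. Neither lay more than 1.04-fold from its control in any treatment. Cox6a1, the non-muscle isoform of subunit VIa, read 5154, 4958 and 5502, and 4681 and 4698. Ndufa4, named for complex I but now placed in complex IV, read 1648, 1419.6 and 1596, and 1565 and 1523. Its difference of -0.21 with butein lay near the complex I median. Cox5b, Cox6b1, Cox6c and Cox7a2 differed by between -0.14 and -0.046 with butein.

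In 2 isoform pairs of complex IV the gene typical of muscle and brown fat differed more from its control than its ubiquitous partner did. In another pair this was not seen, but at low signal. Cox6a2, the muscle isoform of subunit VIa, differed by 0, -0.015 and 0 with butein, sulfuretin and resveratrol. Cox6a1 differed by -0.056, 0.094 and 0.0052. Cox6a2 read only between 11.1 and 20.4, near the floor, so its differences are uncertain. Cox8b, the isoform of subunit VIII found in heart and brown fat, read 324 in DMSO, 242 with butein and 289.97 with sulfuretin, and 164 in DMSO1 against 131 with resveratrol. Its log2 differences were -0.42, -0.16 and -0.32, lower with each compound. Cox8a, the ubiquitous partner, read 2577, 2450.4 and 2524, and 2354 and 2366, and lay at most 1.05-fold from its control. The solvent arrays were further apart for Cox8b (-1.42 after joint normalization) than any treated array was from its control. Cox7a1, the muscle and brown fat isoform of subunit VIIa, read 20.5, 26.4 and 28.0, and 42.9 and 33.8. It was the 1 member past 0.32 upward, by 0.36 with butein and 0.45 with sulfuretin, and it was -0.35 with resveratrol. These low readings were close to the floor, so the size of the difference is uncertain. The ubiquitous Cox7a2 read 2747, 2625 and 2747, and 2502 and 2362. The difference of Cox7a1 between solvent arrays was 0.21.

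**Figure D3:**
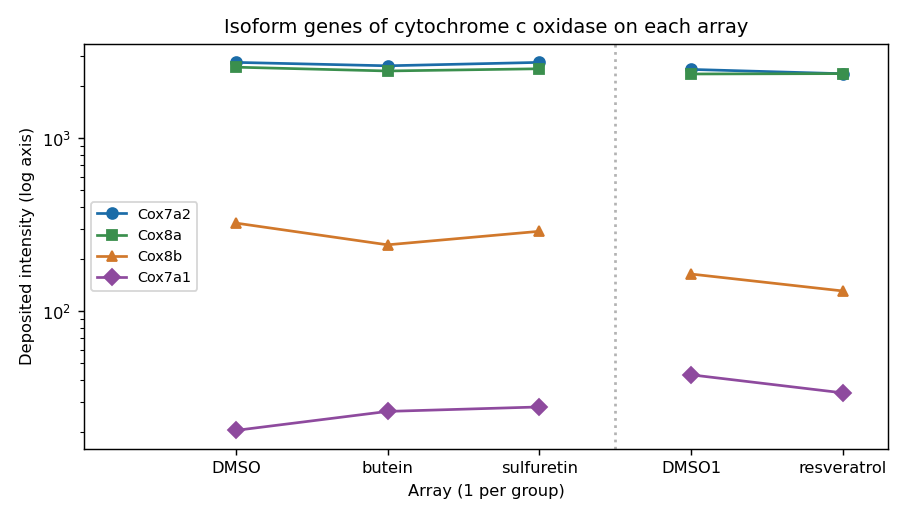
Deposited intensity (log axis) of 4 isoform genes of complex IV on each of the 5 arrays, with lines joining the arrays of a set; the dotted line parts the sets. Cox8b is lower with each compound than in its control and Cox7a1 is higher with butein and sulfuretin and lower with resveratrol, while Cox7a2 and Cox8a are nearly level; levels of different genes come from different probes.

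The remaining members need their own account. Ndufb4 lay under the floor on its 1 single-gene probe set (between 4.45 and 6.20) and was not counted. Probe sets that name Ndufb4 with 2 near-identical copies read 868 and 968 in DMSO and 744 and 839 with butein, differences of -0.22 and -0.21. Ndufs6 shares its probe set with a copy, which read 614 in DMSO, 516 with butein and 583 with sulfuretin, and 454 in DMSO1 against 429 with resveratrol. Cox7b is unnamed in the annotation. Cox7c was counted from a probe set that read only between 10.6 and 25.8, so its difference of -0.18 with butein is uncertain. For these genes the shared probe sets had the direction of the counted members with butein, but reads of the copies cannot be told apart.

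Sulfuretin left the chain close to DMSO. Of 48 members 31 were lower, 13 higher and 4 equal, with a median of -0.023. Of all counted genes 32.6% were lower, 34.8% higher and 32.5% equal. Among counted genes at or above percentile 90 of mean signal, where 43 of the 48 members lay, 53.1% were lower. No member was past 0.32 lower (2.62% of all counted genes were), and no member reached 2-fold (0.241%). Cox7a1 was 1.37-fold higher (5.33% were past 0.32 upward). The medians were -0.033 for complex I, -0.032 for complex II, -0.028 for complex III and 0 for complex IV, so the complexes lay within 0.033 of each other. The members furthest below DMSO were the complex I core gene Ndufs7 (1.15-fold lower), then Ndufb10 (1.13-fold) and Ndufa6 (1.12-fold). All 6 core genes of complex I were lower, with a median of -0.12, beside -0.019 over the 18 accessory genes. Of the 52 dimmer probe sets 32 were lower, 9 higher and 11 equal.

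Resveratrol was set against DMSO1 in its own set. Of 48 members 33 were lower, 5 higher and 10 exactly equal, and the median was -0.037. Of all counted genes 34.0% were lower, 32.9% higher and 33.1% equal. Of those at or above percentile 90 of mean signal, 50.8% were lower. The members past 0.32 were Cox8b and Cox7a1, both lower, where 2.06% of all counted genes were that much lower and 1.61% higher. No member reached 2-fold (0.145% of all counted genes did). The medians were -0.034 for complex I, -0.091 for complex II, -0.022 for complex III and -0.035 for complex IV. The core genes of complex I had a median of -0.076 and the accessory genes one of -0.032. After joint normalization 25 members were lower and 21 higher. Of the dimmer probe sets 32 were lower, 4 higher and 16 equal.

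Read directly against butein, sulfuretin was higher in all 48 counted members. The differences ran from 0.021 (Cox4i1) to 0.34 (Ndufb3), with a median of 0.13. Of all counted genes 37.0% were higher and 30.1% lower, with a median of 0. The bridge between the aromatic rings is open in the chalcone butein and closed into a ring in the aurone sulfuretin. The median was 0.13 for complex I, 0.17 for complex II, 0.17 for complex III and 0.10 for complex IV. Ndufb3 was the 1 member past 0.32 higher, and none was that much lower, beside 5.98% and 7.12% of all counted genes, and none reached 2-fold (1.13%). Of the 52 dimmer probe sets 40 were higher, 3 lower and 9 equal. This is 1 pair of arrays at the same time with doses not given, so no interval can be set on the difference. Differences of dose, structure, culture and array cannot be told apart. The same butein array was set against DMSO above, so this comparison is not independent of that one.

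A trend with signal level ran through the butein arrays. Of the 48 members 43 lay at or above percentile 90 of the counted genes' mean signal. Among the 1244 counted genes at or above that percentile 59.6% were lower with butein, with a median of -0.071. A loess curve through all counted genes stood at -0.082 at the members' levels. With the curve subtracted the members' median was -0.10, 35 of 48 were lower, and 2 were past 0.32 lower. For sulfuretin against DMSO the median with the curve subtracted was -0.00057, with 24 members lower and 24 higher. For resveratrol against DMSO1 it was -0.024, with 31 lower and 17 higher. The median above the curve was 0.074 for sulfuretin against butein, with 43 members higher and 5 lower.

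**Figure D4:**
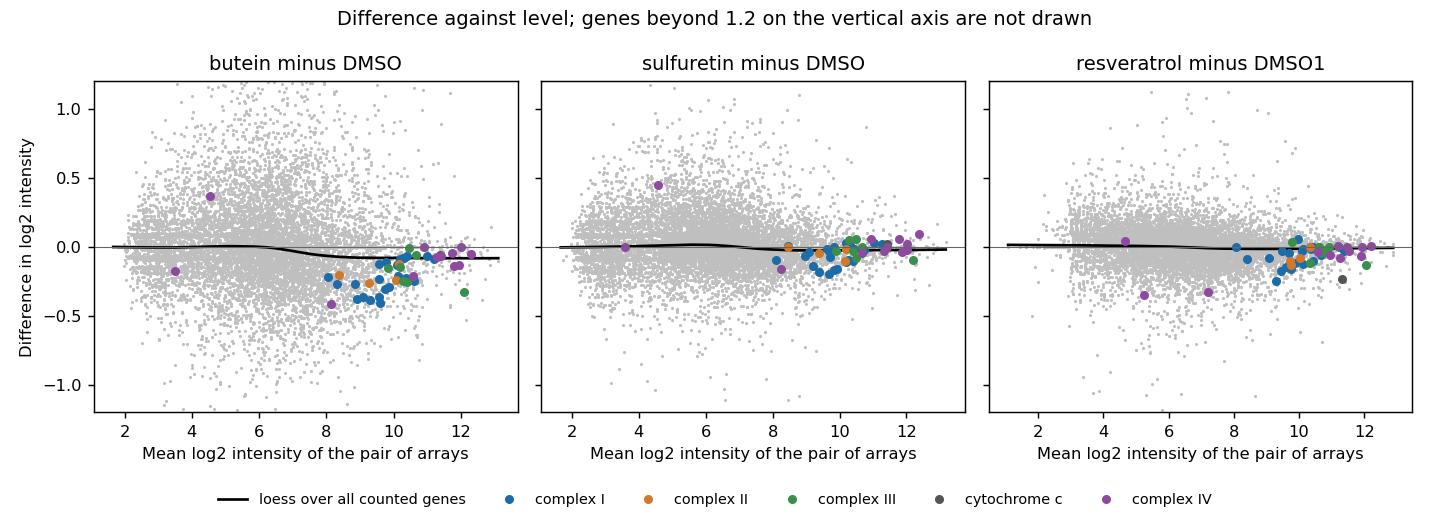
Difference in log2 intensity against mean log2 intensity of the 2 arrays for the 3 treatments, with grey points for all counted genes, coloured points for the members by complex and a black loess curve. With butein most members lie below the curve, which itself runs to about -0.082 at their level, while with sulfuretin and resveratrol they lie around it.

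Genes that work beside complexes I to IV were read from lists chosen with earlier results known. With butein 37.1% of all counted genes were lower, and 59.6% of those at or above percentile 90 of mean signal. Of 14 counted subunits outside the list above, 10 were lower with butein and 4 equal (median -0.099), and Ndufc2, of complex I, was 1.35-fold lower. Of 15 counted ATP synthase genes 14 were lower (median -0.15), and Atp5o, the gene of the stalk subunit OSCP, was 1.29-fold lower. All 15 counted tricarboxylic acid cycle and pyruvate dehydrogenase genes were lower (median -0.17), led by Dlat, Suclg2 and Fh1 (-0.48, -0.34 and -0.34). The ATP synthase and cycle medians were -0.030 and -0.042 with sulfuretin and -0.047 and -0.019 with resveratrol. The mitochondrially encoded subunits had no probe set named by their symbols and were not analysed here.

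Most assembly factors were lower with butein and with resveratrol, and a few were higher. Of 35 counted factors 27 were lower with butein and 4 higher (median -0.19), with 8 past 0.32 lower and 2 past 0.32 higher, where 37.1% of all counted genes were lower and 33.0% higher, and 9.2% and 11.4% past that size. Sco2, which delivers copper to complex IV, read 59.1 in DMSO, 105 with butein and 101 with sulfuretin, and 69.3 in DMSO1 against 74.8 with resveratrol. Ttc19, of complex III, was 1.64-fold higher with butein, while Cox20 and Sdhaf1 differed by -0.63 and -0.58. With resveratrol 28 of 35 were lower (median -0.072), where 34.0% of all counted genes were lower. Of these 28, 3 were past 0.32 (2.06% of all counted genes): Cox15, Cox11 and Tmem126b (-0.51, -0.38 and -0.36).

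Regulators of mitochondrial biogenesis were more often higher than lower with butein, unlike the subunits. They also had lower signal: the brightest in DMSO, Pparg, read 462, beside a median of 1223 over the counted members. The part of signal level in this contrast was not tested. Of 20 counted regulators 13 were higher with butein, 3 lower and 4 equal (median 0.12), where 33.0% of all counted genes were higher and 37.1% lower. Sirt1, a deacetylase gene, read 40.3, 123 and 61.6, and 69.9 and 93.4, and was 3.05-fold higher with butein. Pprc1, a coactivator related to Ppargc1a, was 2.09-fold higher, and Ppard was 0.73 higher. Gabpb1, one of the 13, was under the floor on the first 3 arrays and its difference there is not read. Ppargc1a read 11.8 in DMSO and 14.3 with both butein and sulfuretin, and 15.4 in DMSO1 against 12.4 with resveratrol. Ppargc1b differed by 0.27, -0.025 and -0.49 with butein, sulfuretin and resveratrol. Nrf1, Gabpa, Esrra and Tfam differed by between 0 and 0.15 with butein, between 0 and 0.19 with sulfuretin and between -0.050 and 0 with resveratrol. With sulfuretin 9 of 20 were higher and 6 lower, and with resveratrol 4 were higher and 10 lower (medians 0 and -0.012). Of all counted genes 34.8% were higher and 32.6% lower with sulfuretin, and 32.9% and 34.0% with resveratrol.

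**Figure D5:**
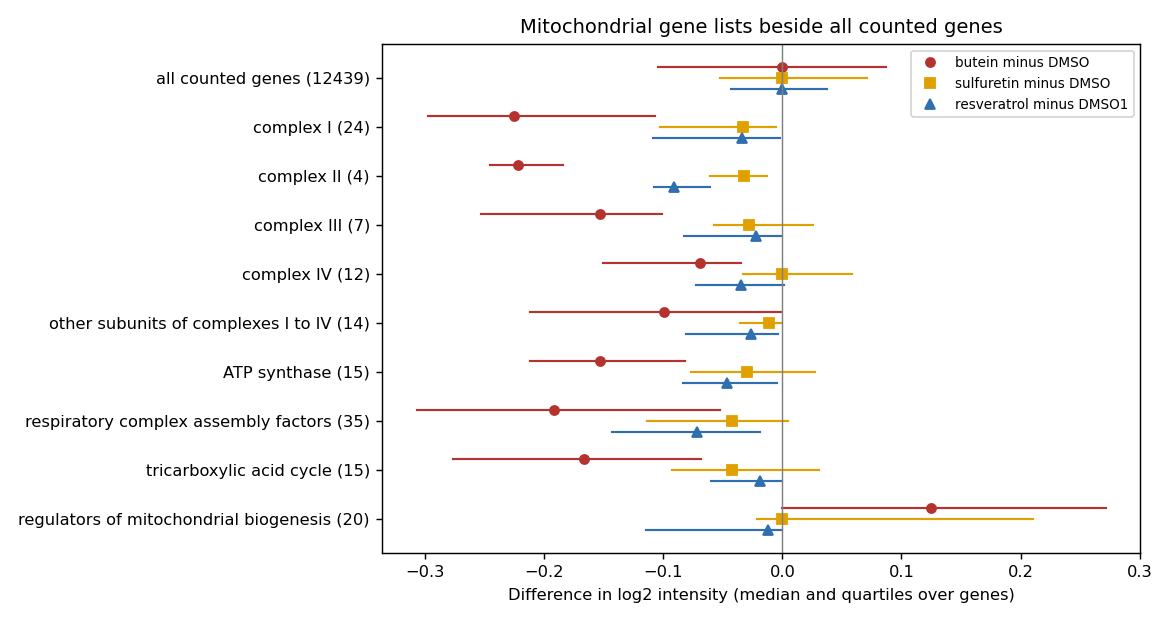
Median (symbol) and quartiles (line) of the difference in log2 intensity over the counted genes of each list, for butein, sulfuretin and resveratrol against their controls, with the number of counted genes in brackets. With butein the medians of complexes I to IV, ATP synthase and the cycle lie below 0 and that of the regulators at 0.12, while the other compounds lie nearer to 0.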

How the data were processed

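RNA of 5 C3H10T1/2 adipocyte cultures was read on 5 arrays. The submitters' processing notes name RMA with no version; other steps are not stated there. The deposited values are intensities, here found to be linear (1.40 to 9340), and log2 was taken with no pseudocount. Sorted values nearly coincide within DMSO, butein and sulfuretin and within DMSO1 and resveratrol (median log2 differences up to 0.0023) but not between these sets (0.52), so each treatment was read against the control of its own set. The number of arrays limits the precision.

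The platform annotation gives 1 gene for 34945 of 45037 probe sets, several for 932 and none for 9160; only the first kind was used, and the brightest probe set by mean log2 stood for its gene. Differences under 1e-06 were called equal. Values on every array are given for each complex's highest and lowest members, members past a log2 difference of 0.32, a set of core and isoform genes, and, from other lists, up to 4 genes past that size and the main regulators. The members and lists were chosen with earlier results of these data known, and the motifs and the core subunits after values were seen. Protein sequences, planned for isoform pairs, were not used here. Alternatives were other probe set choices, joint quantile normalization, centring, loess (span 0.4), other controls, criteria and floors, and limma with both solvent arrays as replicates. The counting steps were tested on simulated data. Tools were R 4.3.3 with limma 3.58.1, and Python 3.11.15 with statsmodels 0.14.6, numpy 2.4.6, scipy 1.17.1, matplotlib 3.10.9 and pandas 2.3.3.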

Additional observations from a re-analysis of the deposited data

Results flagged for a closer look

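Cox7a1, the muscle and brown fat isoform gene of complex IV subunit VIIa, moved in opposite directions in the 2 sets of arrays. It was higher with butein (log2 difference 0.36) and sulfuretin (0.45) than in DMSO and lower with resveratrol (-0.35) than in DMSO1. The difference between the compounds was not tested, and each value is from 1 array at intensities between 20.5 and 42.9.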

How the results depend on the processing

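A median was called moved when an alternative shifted it by more than 1 SD, estimated for each list from its own median difference between the solvent arrays after joint normalization (0.099 over all members, 0.13 for complex I, 0.015 for complex II, 0.0099 for complex III and 0.059 for complex IV). Of 146 medians under alternatives 99 stayed within that SD, 38 moved and 9 changed sign by more than it. In all 11 changed sign, the others within the SD. Both this rule and a wider one, with 0.099 for every list, were run and their outcomes seen before the first was kept; under the wider one 136 stayed, 5 moved and 5 changed sign by more than it. An SD from 1 pair of arrays is itself uncertain. A count was called moved past 1.5 times, and of 157 counts 114 stayed and 43 moved. Counts of members lower or higher by any amount became results only once values were known. The cause of these shifts was not tested.

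With joint quantile normalization and the other solvent array as control, the butein medians became 0.014 over all members, 0.0043 for complex I, -0.14 for II, -0.16 for III and 0.085 for IV, with 21 members lower and 27 higher, 2 past 0.32 higher and 2 past 2-fold. The sulfuretin medians became 0.12, 0.12, 0.0027, -0.066 and 0.15 in the same order, with 16 lower and 32 higher, 3 and 7 past 0.32 lower and higher, and 2 past 2-fold. The resveratrol medians became -0.16, -0.18, -0.039, -0.11 and -0.17, with 14 higher, 13 and 2 past 0.32 lower and higher, and 1 past 2-fold.

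With the mean of both solvent arrays the butein medians became -0.067 over all members, -0.094 for complex I, -0.16 for II, -0.066 for III and 0.0076 for IV, with 14 members higher, and 4 and 0 past 0.32 lower and higher. Sulfuretin gave medians of the opposite sign over all members (0.049) and for complex I (0.040), and -0.0082 for complex II, -0.040 for III and 0.091 for IV, with 18 lower, 30 higher and 1 past 0.32 lower. Resveratrol gave -0.028 for complex II and -0.072 for III, with 12 higher, 1 past 0.32 higher and 1 past 2-fold. Joint normalization alone gave 4 members higher with butein and 0 past 0.32 higher, a complex III median of 0 with sulfuretin, complex II and III medians of -0.065 and 0.0095 and 21 members higher with resveratrol, and, for sulfuretin against butein, 0.14 for complex III and 1 member lower.

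Loess correction gave, with butein, -0.14 for complex II, -0.072 for III and 0.014 for IV, 13 members higher and 2 past 0.32 lower. It gave -0.0051 for complex II, -0.0015 for III and 24 members higher with sulfuretin, and -0.0096 for complex III, 17 higher and 1 past 0.32 lower with resveratrol. For sulfuretin against butein it gave 0.12 for complex II, 0.11 for III, 0.043 for IV, 5 members lower and 0 past 0.32 higher. The mean of all probe sets gave complex II medians of -0.17 with butein, -0.059 with sulfuretin, -0.11 with resveratrol and 0.12 for sulfuretin against butein, complex III medians of -0.0056 with resveratrol and 0.13 for sulfuretin against butein, and 1 member lower there. Without probe sets that can match several transcripts the complex III median with resveratrol was -0.011. Placing Cycs with complex III gave -0.014 with sulfuretin, -0.035 with resveratrol and 0.15 for sulfuretin against butein.

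A criterion of 1.1-fold gave 27 members lower with butein, 6 with sulfuretin and 7 with resveratrol, and 21 higher for sulfuretin against butein. A criterion of 1.5-fold gave 0 for butein in each direction, 0 higher with sulfuretin, 0 lower with resveratrol and 0 higher for sulfuretin against butein. No paired analysis was possible because each group has 1 array. Cox7a1 and Cox7c have low signal, and for Cox8b and Sdhc the solvent arrays differed most.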

Other observations

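A small list of mitochondrial genes known to respond to low oxygen was partly higher with butein and sulfuretin. Bnip3, a gene of mitophagy, read 964 in DMSO, 1735 with butein and 1499 with sulfuretin, and 1437 in DMSO1 against 1372 with resveratrol. Higd1a, whose product binds complexes III and IV, was 1.43-fold and 1.35-fold higher with butein and sulfuretin and differed by -0.24 with resveratrol. Pdk1, which shuts off pyruvate dehydrogenase, was 1.15-fold higher with butein and 1.77-fold with sulfuretin, and differed by -0.31 with resveratrol. Pdk4, a related kinase gene, was higher in all 3 treatments (0.47, 0.50 and 0.74). Of the 7 genes listed, 4 were higher and 3 equal with butein and with sulfuretin, where 33.0% and 34.8% of all counted genes were higher, and 2 were higher and 5 lower with resveratrol (34.0% lower). Cox4i2 and Ndufa4l2, variant subunits of the same list, were equal in DMSO, butein and sulfuretin at readings of 7.32 and 7.83, under the floor.

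Of 7 counted thermogenic and uncoupling genes 4 were lower with butein, 1 higher and 2 equal, where 37.1% of all counted genes were lower. Dio2, the 1 higher, and Elovl3, equal, were under the floor in DMSO, butein and sulfuretin, and their differences there are not read. Cidea, a brown fat lipid droplet gene, differed by -0.45 with butein, -0.14 with sulfuretin and -0.40 with resveratrol, at readings between 15.6 and 70.4. Slc25a4, an ADP/ATP carrier gene, differed by -0.35, -0.13 and 0.0056.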
